A study of Mus musculus with 6 samples.

Results

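Genes of epidermal differentiation were compared between E18.5 fetal and adult basal mammary cells of the mouse on single-colour arrays. The 9 genes listed were the keratin genes Krt1, Krt10 and Krt77, the cornified envelope genes Lor and Ivl, the keratin-bundling gene Flg, the genes of the small secreted proteins Sbsn and Krtdap, and the desmosomal cadherin gene Dsg1a. Members were taken as the non-control probes whose transcript accession belonged to a listed gene. This gave 10 probes for 8 of the 9 genes, out of 55681 probes on the array, of which 27235 matched 20660 genes. No probe was matched to Flg, so Flg has no value here. Krt10 and Ivl had 2 probes each, and the other 6 genes had 1.

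The adult cells came from the mammary glands of C57Bl6J females of 8–12 wk and were sorted, after an overnight digestion, for EpCAM+CD49f+ without CD31, CD45, Ter119 or BP-1. The fetal cells came from glands of C57Bl6J females at E18.5 and were sorted, after a much shorter digestion, for EpCAM++CD49f+ without CD31, CD45 or Ter119. Each group had 3 biological replicates with 1 array each, and no cells were treated or cultured before RNA was extracted. The array was the Agilent SurePrint G3 Mouse GE 8x60K, whose spots brighten with the amount of Cy3-labelled cRNA that binds them. CD49f is carried by basal keratinocytes of the skin as well as by mammary epithelium. The sorts removed endothelial, blood and erythroid cells but used no marker of skin.

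Values are log2 spot signals after quantile normalization over the 6 arrays, so that a difference of 1 is a doubling. The scanner software called 76.4% to 83.3% of the probes of an array well above background, and no spot was saturated. Of 20448 probes left after removal of those with low signal in both groups, 7 were member probes, for 6 genes. A call needed a limma p, after Holm's adjustment, of 0.05 or less and a difference between the groups of at least 1 on the log2 scale. Counts at the same limits with the milder Benjamini-Hochberg adjustment are given beside these. For 1 probe, exact permutation over 3 arrays against 3 cannot reach a p below 0.1. The p values therefore depend on the variance that limma pools across probes, and the number of arrays limits the precision. The arrays were of sorted bulk RNA, in which a smaller share of cells that express a gene and less RNA in each such cell cannot be told apart.

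The epidermis is a stratified epithelium whose basal cells carry the keratins of Krt5 and Krt14. Cells that leave the basal layer switch to the keratins of Krt1 and Krt10, and the outer layers then build a cornified envelope from loricrin, involucrin and small proline-rich proteins, with filaggrin to bundle the keratin filaments. The mammary gland arises as an epidermal bud, and its basal layer shares keratins and p63 with the epidermis but becomes contractile rather than cornified.

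Promoter windows were read for 7 of the 9 genes from a RefSeq table of the GRCm38.p6 build, in which a window runs from 250 bases before the annotated start of the gene to 50 after it. Of the members with a measured difference, 4 are shown in the order in which their results follow, because Krt10 and Lor are higher in fetal cells and because Sbsn and Krtdap lie on the same strand of chromosome 7 and differ in opposite directions. Each run shows 130 bases before the start and the start base itself, 5′ to 3′ on the strand of the gene. Capitals mark matches to the TATA box (TATAAA) and to the AP-1 motif (TGANTCA).
Krt10, chr11:99389364-99389494, minus strand: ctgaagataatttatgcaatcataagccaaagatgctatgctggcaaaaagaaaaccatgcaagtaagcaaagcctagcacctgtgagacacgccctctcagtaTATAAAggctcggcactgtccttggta
Lor, chr3:92083142-92083272, minus strand: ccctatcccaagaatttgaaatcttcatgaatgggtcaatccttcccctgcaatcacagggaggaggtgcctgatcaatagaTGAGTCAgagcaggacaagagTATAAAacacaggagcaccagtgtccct
Sbsn, chr7:30751341-30751471, plus strand: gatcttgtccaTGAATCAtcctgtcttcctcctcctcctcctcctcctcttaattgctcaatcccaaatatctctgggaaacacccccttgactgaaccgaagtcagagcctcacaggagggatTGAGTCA
Krtdap, chr7:30787775-30787905, plus strand: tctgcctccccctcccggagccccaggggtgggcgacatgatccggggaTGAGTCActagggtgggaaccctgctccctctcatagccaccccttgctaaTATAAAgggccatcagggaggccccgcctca

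Both strands were searched over the whole windows. TATAAA was found in 5 of the 7 member windows and in 13.62% of the 32817 windows of the table. TGANTCA was also found in 5 of 7 and in 7.81% of all windows. The 5 windows with TATAAA were those of Lor, Ivl, Flg, Krtdap and Krt10, whereas TGANTCA was in those of Lor, Ivl, Flg, Krtdap and Sbsn. In Krt10 the TATAAA match began at position -26 from the start, in Lor at -27 and in Krtdap at -30. The AP-1 match lay at -48 in Lor and at -81 in Krtdap, and Sbsn held 2 matches, of which the one next to the start covers the start base. None of the member windows held the AP-2 motif GCCNNNGGC (16.58% of all windows) or the Grainyhead-like motif AACCNGTT (2.08% of all windows). Krt77 held none of these motifs. The matches shown in capitals do not overlap one another. A match describes the sequence only, and Sbsn and Krtdap, which differed in opposite directions, both held AP-1 matches.

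The suprabasal keratin Krt10, the type I partner of keratin 1, was the only member that passed the Holm threshold. Its brighter probe (A_66_P127224) was at 8.68, 8.68 and 8.67 on adult basal arrays 1, 2 and 3. On fetal arrays 1, 2 and 3 it was at 10.26, 10.08 and 10.09. The 3 adult arrays were almost equal and all 3 fetal arrays lay above them. Krt10 rose by 1.47 on the log2 scale, or 2.77-fold (SE 0.10, 95% interval 1.24 to 1.70, Holm-adjusted p = 0.022 by limma). The direction held on each slide, with differences of 1.59 and 1.41. With any 1 array left out the difference was between 1.41 and 1.50, but the Holm-adjusted p was between 0.083 and 0.28, so that each of the 6 arrays was needed for the call. With slide as a block the difference was 1.50 and the Holm-adjusted p was 0.10, and with replicate number as a block the p was 0.37. The other Krt10 probe (A_55_P2070009) was at 7.46, 7.52 and 7.14 in adult and 8.57, 8.25 and 8.25 in fetal cells. This is a difference of 0.98 (SE 0.15, Benjamini-Hochberg-adjusted p = 8.1e-04 by limma), just under the fold limit, with the groups again apart. Within slides the second probe gave 1.26 on slide 1 and 0.73 on slide 2.

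Over all tested probes, 5.92% were called higher in fetal and 5.18% higher in adult basal cells with Holm's adjustment, against 1 and 0 of the 7 member probes. With Benjamini-Hochberg adjustment 16% of probes were called higher in fetal and 14% in adult basal cells, against 3 member probes (Krt10, Krt1 and Krtdap) and 1 (Sbsn). Krt1, Krt77 and Krtdap passed the low-signal filter through their fetal mean alone, so these counts are a description and not evidence about the list.

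**Figure D1:**
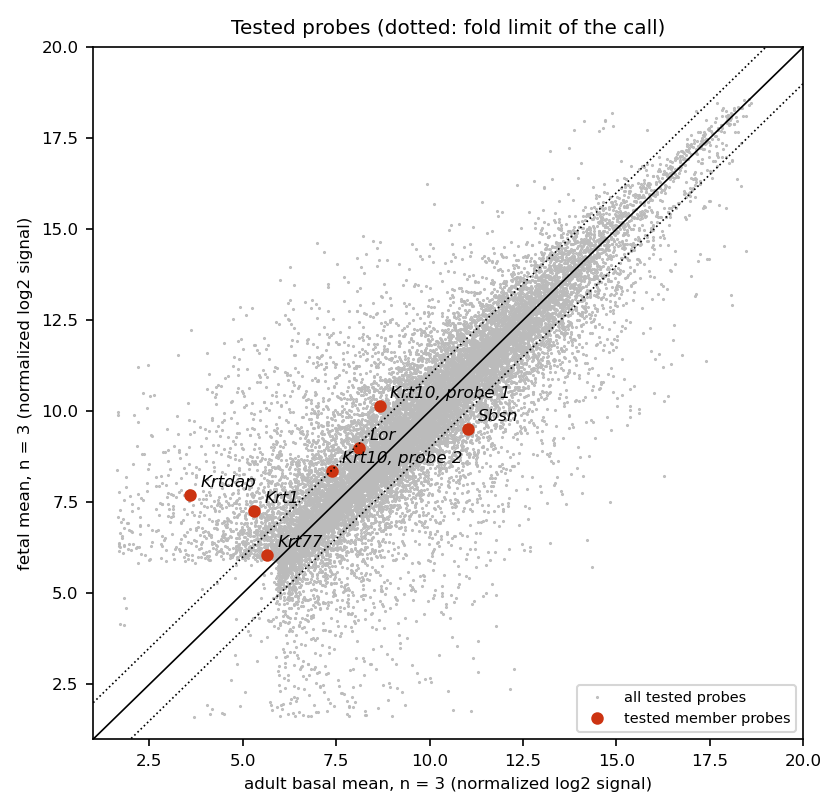
Mean normalized log2 signal in fetal against adult basal cells (n = 3 each) for the 20448 tested probes in grey and the 7 tested member probes in red, with the line of equality and dotted lines at a difference of 1 log2 unit. The brighter Krt10 probe, Krt1 and Krtdap lie beyond the upper dotted line and Sbsn beyond the lower one.

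Krt1 encodes the type II keratin that pairs with keratin 10. Its probe was at 5.50, 5.20 and 5.21 in adult basal cells and at 7.62, 7.04 and 7.11 in fetal cells. All 6 arrays were well above background, and the lowest fetal array exceeded the highest adult array. The difference was 1.95 on the log2 scale, or 3.86-fold (SE 0.18, 95% interval 1.53 to 2.37). It did not pass Holm's adjustment (adjusted p = 0.16 by limma) but did pass that of Benjamini and Hochberg (adjusted p = 6.1e-05 by limma). The difference was 2.26 within slide 1 and 1.88 within slide 2. Among the alternative settings fitted by probe, Krt1 passed the Benjamini-Hochberg limits in each of the 15 that tested it, with differences from 1.60 to 2.07. After the normexp background correction the probe was not tested.

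Krt77, a type II keratin of the eccrine duct and suprabasal skin and the gene next to Krt1 on chromosome 15, did not follow it. In adult basal cells its probe was at 5.78, 6.03 and 5.12, and in fetal cells at 5.61, 5.35 and 7.18. The groups overlapped, since fetal array 3 alone was high and the other two fetal arrays lay within the adult range. The difference was 0.40 (SE 0.48, 95% interval -0.72 to 1.53, Benjamini-Hochberg-adjusted p = 0.49 by limma), an interval that also holds differences as large as that of Krt10. Without fetal array 3 the difference was -0.16, a value with no test because the probe then fell below the low-signal filter. Of the keratin genes beside this pair, Krt2 on the other side of Krt1 differed by 0.02 and Krt76 on the other side of Krt77 by -0.01, the latter not tested.

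**Figure D2:**
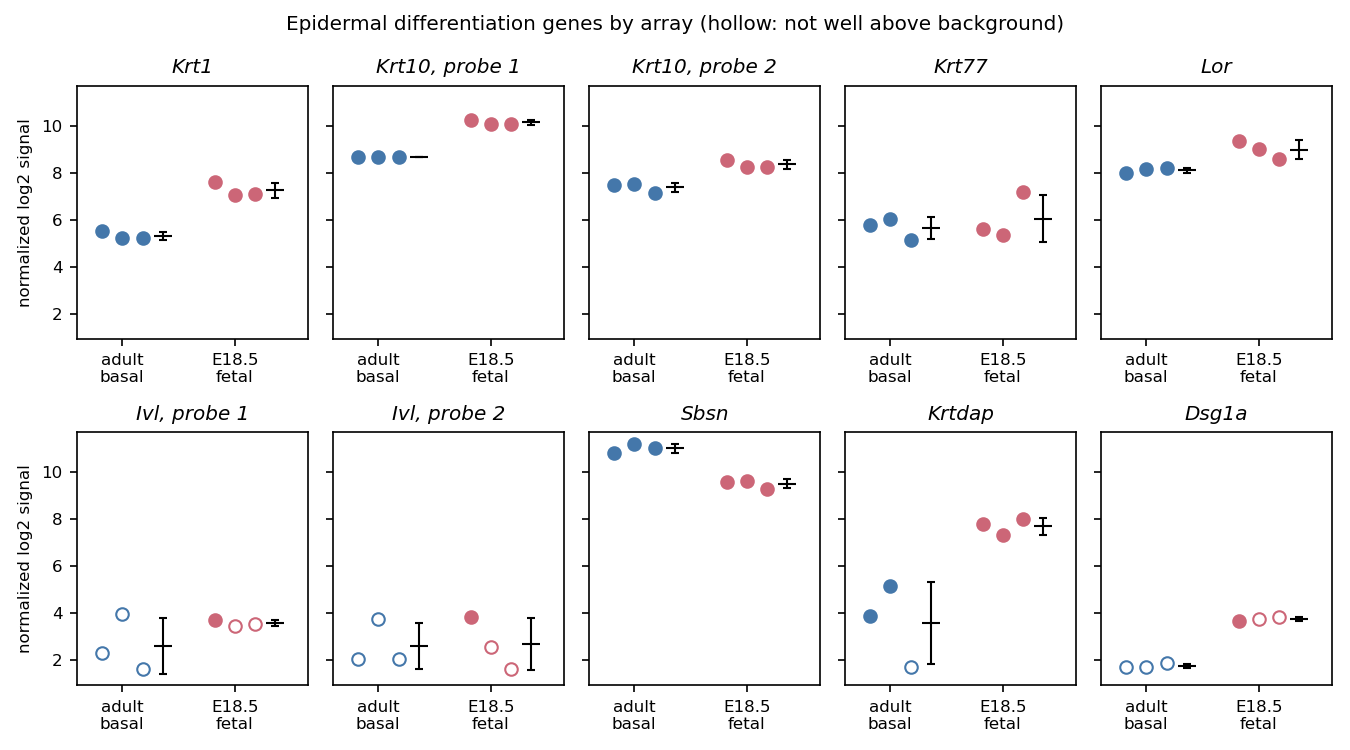
Normalized log2 signal of the 10 member probes, with 1 point per array (adult basal arrays 1 to 3 in blue, fetal arrays 1 to 3 in red, hollow where the spot was not well above background) and black bars for the mean and SD of 3 arrays. Krt10, Krt1, Lor and Krtdap lie higher on every fetal array and Sbsn on every adult array, while Krt77 is high on fetal array 3 alone; levels of different probes are not comparable.

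Loricrin is the main protein of the cornified envelope. The Lor probe was at 7.99, 8.16 and 8.19 in adult basal cells and at 9.37, 8.99 and 8.57 in fetal cells. The fetal arrays lay above the adult arrays but were spread more widely among themselves. The difference was 0.87 on the log2 scale, or 1.82-fold (SE 0.20, 95% interval 0.40 to 1.34). By limma its Benjamini-Hochberg-adjusted p was 0.0069, and the fold limit was not reached. The difference was 0.67 without fetal array 1 and 1.07 without fetal array 3. Of 16 alternative settings fitted by probe, only the latter passed both Benjamini-Hochberg limits. The difference was 1.29 on slide 1 and 0.62 on slide 2, the slide that holds fetal array 3. The genes next to Lor in the epidermal differentiation complex of chromosome 3, Pglyrp3 and Prr9, differed by 0.18 and -0.11.

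Involucrin is an early envelope precursor that transglutaminases crosslink. Both Ivl probes were well above background on fetal array 1 alone. The first (A_51_P475748) was at 2.29, 3.94 and 1.62 in adult and 3.72, 3.45 and 3.56 in fetal cells, and the second (A_55_P2053439) at 2.05, 3.74 and 2.03 in adult and 3.85, 2.56 and 1.62 in fetal cells. The groups overlapped for both probes, the fetal means lay under the mean of the floors of the 3 adult arrays (on each array the lowest signal well above background, or the probe's own where higher), and no fold or test is given. For Flg, which encodes the precursor of filaggrin, only neighbours were measured. Flg2 was well above background on 1 array of each group, and Hrnr on all 6 arrays differed by -0.23 without a test, as it fell below the low-signal filter. Dsg1a, the desmosomal cadherin of the upper epidermis, was well above background on 0 of 3 adult basal arrays and 1 of 3 fetal arrays. Its probe was at 1.70, 1.70 and 1.86 in adult and 3.68, 3.76 and 3.83 in fetal cells. These are separate groups. The floor for the adult arrays was the mean, over the 3 arrays, of the lowest signal well above background on each, and the fetal mean lay under it, so that no fold can be given. When the low-signal filter was dropped, Dsg1a passed the Holm threshold (adjusted p = 0.025 by limma) from values that were nearly all at the background. Dsg1a, Ivl and Flg therefore contribute no measured difference.

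Sbsn, which encodes the secreted protein suprabasin of suprabasal keratinocytes, ran the other way. The Sbsn probe was at 10.83, 11.20 and 11.03 in adult basal cells and at 9.61, 9.64 and 9.29 in fetal cells. Every adult array was above every fetal array. The difference was -1.51 on the log2 scale, a 2.85-fold lower fetal signal (SE 0.15, 95% interval -1.85 to -1.17). By limma the Holm-adjusted p was 0.24 and the Benjamini-Hochberg-adjusted p 8.1e-05. With a variance trend and robust estimation the Holm-adjusted p was 0.033. The difference was -1.32 on slide 1 and -1.74 on slide 2, and it stayed between -1.60 and -1.40 with each array left out.

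Krtdap, which encodes keratinocyte differentiation-associated protein, another small secreted protein of suprabasal cells, had the greatest fitted difference of the tested members. In adult basal cells its probe was at 3.89, 5.17 and 1.71, with array 3 not well above background. In fetal cells it was at 7.80, 7.31 and 7.99. The fetal arrays were close together and the adult arrays were spread over more than 3 log2 units near the background. The difference was 4.11 (SE 0.77, 95% interval 2.29 to 5.93, Benjamini-Hochberg-adjusted p = 0.0026 and Holm-adjusted p = 1 by limma). Its size depended on the dim adult values. The difference was 3.17 without adult array 3, 4.90 without adult array 2 and 2.84 with an offset of 16 added before log2. Slides 1 and 2 gave 5.0 and 2.48. Among the alternative settings fitted by probe, Krtdap passed the Benjamini-Hochberg limits in each of the 15 that tested it. Normexp correction removed Krtdap before the test.

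**Figure D3:**
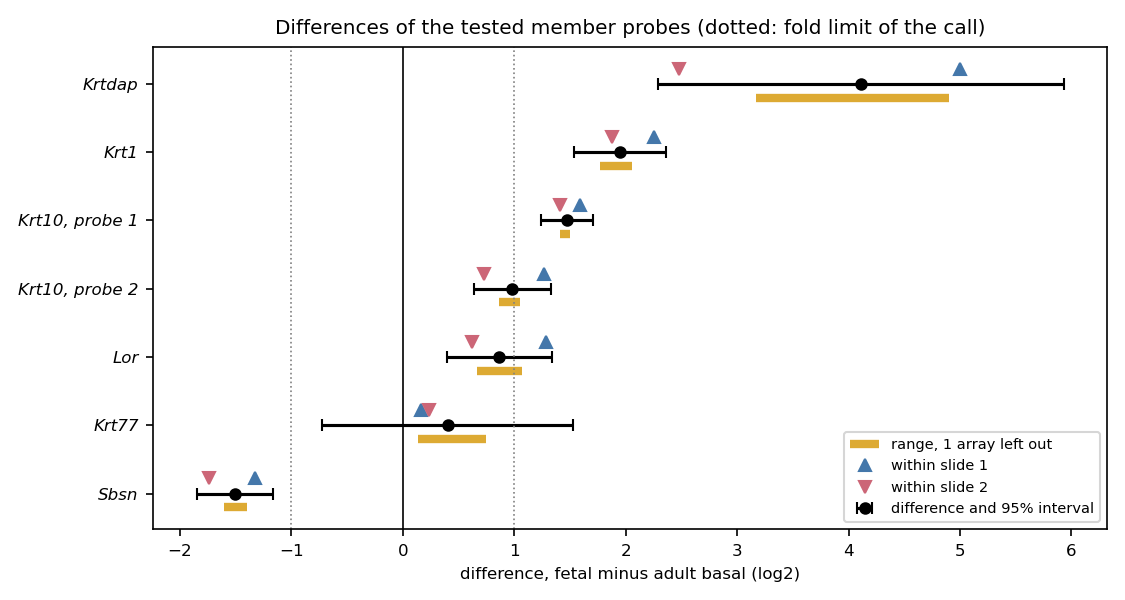
Fetal minus adult basal differences (log2) of the 7 tested member probes, with the 95% interval of the limma fit (black), the value within each slide (triangles) and the range over the fits with 1 array left out (yellow). The interval of Krt77 spans 0, Sbsn is the only probe below 0, and the interval of Krtdap is the widest, from 2.29 to 5.93.

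In RefSeq gene order Sbsn, Dmkn and Krtdap are consecutive on chromosome 7. Dmkn, which encodes dermokine and was singled out after its value was seen, was at 9.44, 9.33 and 8.75 in adult and 12.20, 12.16 and 11.45 in fetal cells. Its difference of 2.77 (Holm-adjusted p = 0.19 by limma) had the sign of Krtdap and not that of Sbsn, so that within this run of 3 genes Sbsn was higher on every adult array and the other two on every fetal array. Over all tested probes, the groups were apart with the fetal arrays above in 34.1% and with the adult arrays above in 35.0%. Among the 7 member probes the fetal arrays were above for 5 and the adult arrays for 1, which is a description only, since 2 of the 5 measure Krt10 and those of Krt1 and Krtdap passed the filter through their fetal mean.

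**Figure D4:**
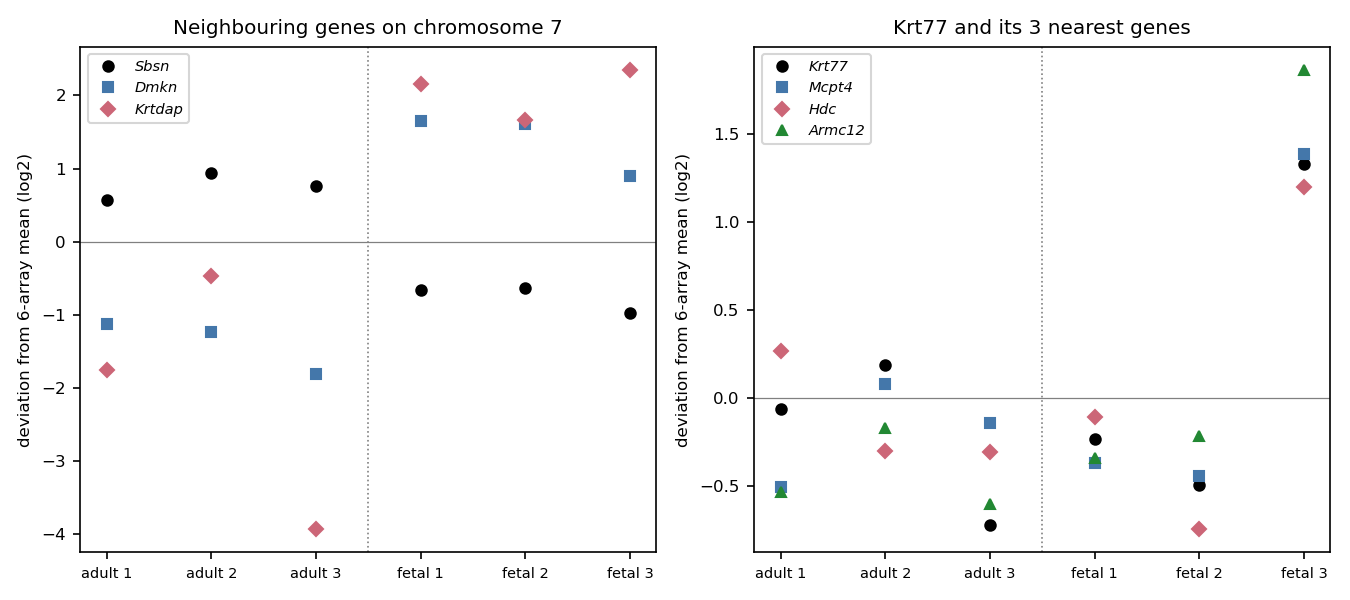
Deviation of each array from the gene's own 6-array mean (log2) for the neighbours Sbsn, Dmkn and Krtdap on the left and for Krt77 and the 3 genes nearest to it in pattern on the right, with 1 point per gene and array. On the left Sbsn is above 0 on the adult arrays and the other two on the fetal arrays; on the right all 4 genes are highest on fetal array 3.

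The 3 genes with the most similar pattern were found for each member well above background on all 6 arrays. Likeness was taken as the smallest root mean square difference of mean-centred log2 values over the 6 arrays. The candidates were 19771 tested probes, each well above background on all 6 arrays, and a gene was named only once. For Krt1 the nearest genes were Homer1 (0.11), Asprv1 (0.12) and Mgat5 (0.13). Asprv1 encodes the epidermal protease that processes profilaggrin, and it was at 7.89, 7.59 and 7.53 in adult and 9.91, 9.12 and 9.58 in fetal cells. For Krt10 they were Rpf1 (0.05), Pakap (0.06) and Epb41 (0.06), for Lor Rap2b (0.10), Cdh1 (0.11) and Bmp3 (0.11), and for Sbsn Rbms1 (0.03), Galnt3 (0.05) and Golgb1 (0.06). With 6 arrays in 2 groups, many genes share such a pattern. For Krt77 the nearest genes were less close, at 0.31 for Mcpt4, 0.32 for Hdc and 0.35 for Armc12. Mcpt4 and Hdc, which encode a mast cell protease and histidine decarboxylase, are known from mast cells.

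Mcpt4 was at 6.91, 7.51 and 7.28 in adult basal cells and at 7.06, 6.98 and 8.81 in fetal cells. Like Krt77, it was highest on fetal array 3. Other mast cell genes were then looked up, after these values had been seen. Cpa3 was at 3.95, 3.87 and 3.88 in adult basal cells and at 5.90, 5.92 and 8.54 on fetal arrays 1, 2 and 3. Unlike Krt77, it was higher on every fetal array, with a difference of 2.89 (Benjamini-Hochberg-adjusted p = 0.0067 by limma). The Cpa3 probe was well above background on 1 of 3 adult basal arrays. It passed the low-signal filter through its fetal mean alone, so this difference is a description whose size rests on dim adult values. Cma1 was at 4.12, 4.81 and 4.34 in adult and 4.71, 4.94 and 6.36 in fetal cells. Tpsb2, in contrast, was lower on fetal array 3 (10.79) than on the other two (11.22 and 11.32), and Ms4a2 and Fcer1a were at background on all 6 arrays. The sort removed CD45+ cells, and Ptprc, which encodes CD45, was at 6.29, 7.25 and 6.72 on the fetal arrays. Whether these cells had a part in the Krt77 value was not tested.

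The other genes of epidermal differentiation were taken as 7 lists with 115 genes on the array, of which 83 were tested. After Holm's adjustment 8 of these were higher in fetal and 7 in adult basal cells, against 5.92% and 5.18% of all tested probes. After that of Benjamini and Hochberg the counts were 23 and 12, against 16% and 14%. Their median difference was 0.11, against -0.03 over all tested probes. Of the 83, 11 passed the low-signal filter through their fetal mean alone and 2 through their adult mean alone, so these counts and the median are a description. The 11 include Zfp750 and Dsg3 of the 8 genes, and 9 of the 23. These 9 are Zfp750, Dsg3, Calm4, Dsc3, Klk8, Krt6a, Sprr1b, Sprr2d and Sptlc3. The 2 include Nipal4 of the 7 and of the 12. Of the 15 genes called after Holm's adjustment, 7 were called in all of 17 alternative settings. Without fetal array 1 the count was 8.

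Most other cornified envelope genes lay near 0, below the difference of Lor. Of 19 tested, Evpl (envoplakin, a plakin of the envelope) rose by 2.45 (Holm-adjusted p = 0.0066 by limma), and the median was 0.02. Evpl was at 9.07, 9.18 and 8.76 in adult and 11.59, 11.43 and 11.35 in fetal cells. Its call was lost when the low-signal filter was dropped (Holm-adjusted p = 0.058 by limma) and without adult array 1 or any 1 fetal array, with differences of 2.33 to 2.54 with each array left out. The transglutaminase genes Tgm1 and Tgm3, whose products crosslink loricrin and involucrin, differed by -0.02 and 0.09. After Benjamini-Hochberg adjustment 4 were called higher in fetal cells and 1 in adult cells. Beside Evpl these were Sprr1b (3.02), Sprr2d (1.81) and Ppl (1.72) in the fetal direction and Cst6 (-1.25) in the adult direction, named after their values were seen. Sprr1b and Sprr2d passed the low-signal filter through their fetal mean alone. Of 7 adhesion genes tested beside Dsg1a, the desmosomal cadherin gene Dsg3 rose by 1.62 (Holm-adjusted p = 0.019), a call kept in 5 of 17 alternative settings. It was lost with any 1 array left out (1.58 to 1.69) with slide as a block (1.62, Holm-adjusted p = 0.13 by limma) and in 5 further settings, the unfiltered one among them. Cdsn, which encodes the corneodesmosome protein corneodesmosin, differed by -2.68, Perp by -1.08 and Dsc3 by 2.40, all past Benjamini-Hochberg adjustment only and named after their values were seen. Dsc3, like Dsg3, passed the low-signal filter through its fetal mean alone.

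Of 8 barrier lipid genes tested, 1 was called higher in fetal and 2 in adult basal cells after Holm's adjustment. After that of Benjamini and Hochberg the counts were 2 and 2. Cers3, which encodes a ceramide synthase for very long acyl chains, rose by 3.79 (Holm-adjusted p = 1.8e-04 by limma). Elovl4, an elongase of very long fatty acids that precedes it in the pathway, fell by 3.80, and Nipal4, an ichthyosis gene, fell by 3.73. The median of the 8 genes tested was -0.25. Of 10 genes of epidermal proteolysis none was called after Holm's adjustment and 3 were higher in fetal cells after that of Benjamini and Hochberg. The brightest, St14 (matriptase), differed by 0.15, and Klk8, named after its value was seen, by 4.33 (Holm-adjusted p = 0.079 by limma). The Klk8 probe was well above background on 2 of 3 adult basal arrays and passed the low-signal filter through its fetal mean alone. Of 10 other suprabasal secreted and surface genes none passed Holm's adjustment, and 3 passed the other, all higher in fetal cells. Lypd3, the brightest, differed by 1.44.

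The other keratins that passed Holm's adjustment went against Krt1 and Krt10. Of 11 other keratin genes tested, Krt5 fell by 3.90, Krt15 by 3.85, Krt17 by 3.08 and Krt13 by 2.30, with Holm-adjusted p between 9.1e-05 and 0.011 by limma. Krt14, the partner of Krt5, differed by -1.20 with overlapping groups, since adult array 2 was at 13.39 and the other two adult arrays at 15.25 and 15.46. The call of Krt13 was lost with no low-signal filter, with the replicate block and without adult array 1 or any 1 fetal array, that of Krt5 without adult array 1 or fetal array 1, and that of Krt15 without fetal array 1. After Benjamini-Hochberg adjustment Krt6a and Krt79, named after their values were seen, were also called, and both had the direction of Krt1 and Krt10, with differences of 2.09 and 1.33. Krt6a passed the low-signal filter through its fetal mean alone. The suprabasal Krt2 and the stress keratin Krt16 differed by 0.02 and -0.15.

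Regulators of epidermal differentiation held the 3 greatest differences of the epidermal lists. Zfp750, a terminal differentiation factor that acts after p63, was at 4.81, 4.96 and 5.16 in adult basal cells and 10.49, 10.47 and 10.67 in fetal cells. It rose by 5.57 (SE 0.12, Holm-adjusted p = 1.0e-05 by limma). The Notch target Hes1 rose by 4.78 and the barrier regulator Grhl3 by 4.59, both called in all 17 alternative settings. The epithelial ETS factors Ehf and Elf3 rose by 2.32 and 2.02, and Rbpj, the DNA-binding partner of Notch, fell by 1.96. The call of Ehf was lost without fetal array 1 or 2, and that of Elf3 with the replicate block. That of Rbpj was lost with no low-signal filter, with the replicate block and without any 1 array other than adult array 2. Of 18 regulators tested, Trp63, which encodes p63, differed by -0.08 with overlapping groups, and Klf4 by 0.46.

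**Figure D5:**
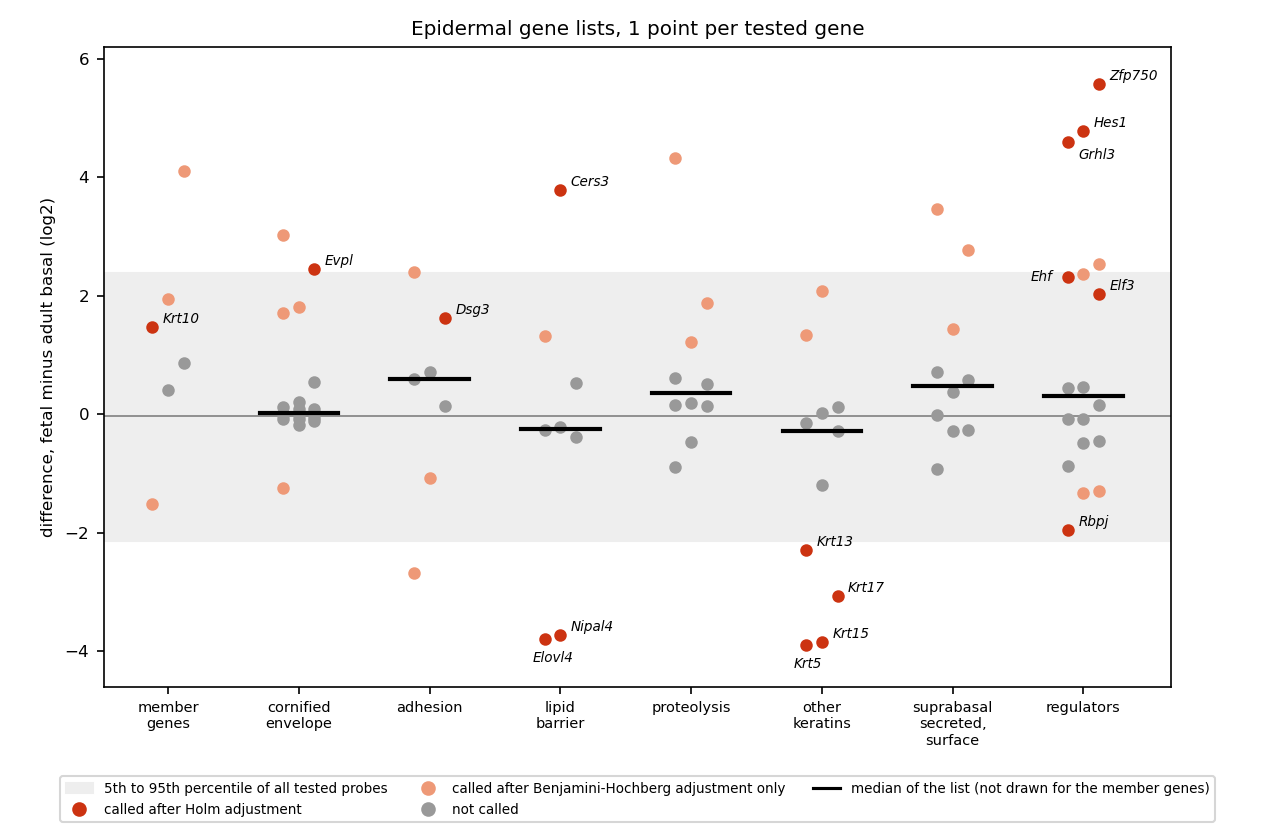
Fetal minus adult basal differences (log2) of the tested member genes and of the tested genes of 7 further epidermal lists, with 1 point per gene (its brightest probe), list medians in black and the 5th to 95th percentile of all tested probes in grey. Called regulators reach 5.57 for Zfp750, the 4 other keratins called after Holm's adjustment lie at -2.30 and below, opposite to Krt10, and the cornified envelope genes cluster near 0.

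The label of the adult cells was checked with mammary basal markers. Of 8 such genes 6 were called, all higher in adult cells, among them Acta2 (-4.07), Cnn1 (-6.0), Myh11 (-8.63) and Oxtr (-3.96). Acta2 was at 14.07 to 14.59 in fetal cells. The list's summed linear signal was between 752096 and 822518 on the adult arrays and between 52204 and 65568 on the fetal arrays, with the Acta2 probe the brightest of the list. Brightness depends on the probe as well as on the transcript, so that the brightest probe of a list does not rank its genes by abundance. Of 8 luminal genes 7 were tested, and Elf5, Kit and Cd24a were called higher in fetal cells, by 7.55, 4.0 and 2.15. Krt19 went the other way (-1.22, past Benjamini-Hochberg adjustment only), and for Krt19 and Prlr every adult array was above every fetal array. The luminal sum was 115834 to 126251 in adult and 174710 to 215411 in fetal cells, with the Krt18 probe the brightest. Stage, sort gate, digestion time and the makeup of the fractions differed together between the groups, and their parts in the differences of Krt10 and the other members cannot be told apart.

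Markers of other skin cells were set beside the members. Of 12 hair follicle genes 7 were tested and none was called after Holm's adjustment. Tchh and Edar, named after their values were seen, were higher in fetal cells by 1.43 and 2.09 after that of Benjamini and Hochberg. Both passed the low-signal filter through their fetal mean alone, so these calls are a description. The list's summed linear signal was 6690 to 8029 on adult and 6180 to 7385 on fetal arrays, the Msx2 probe was the brightest, and Shh, a defining marker, did not rise above background on any of the 6 arrays. Of 6 sebaceous gland genes Cidea and Scd1 passed the milder adjustment, with 1393 to 1905 in adult and 2310 to 2511 in fetal cells for the list's sum, Mc5r as the brightest probe and Elovl3 not above background. Of 5 Merkel cell genes Piezo2 was higher in fetal cells by 2.20 (Holm-adjusted p = 0.0033 by limma), Krt20 was lower by the milder adjustment, and Sox2 was not above background. The Piezo2 probe was also the brightest. The sum was 512 to 594 in adult and 706 to 823 in fetal cells. Of 5 melanocyte genes Dct was higher by 2.27 after the milder adjustment, the Tyr probe was the brightest, the sums were 1379 to 1800 and 1514 to 1677, and Tyrp1 was not above background. The part of skin cells in the differences of Krt1, Krt10 and Krtdap was not tested.

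No gene of the dermal fibroblast and leukocyte lists was called higher in fetal cells. The mast cell gene Cpa3 was not on these lists. Cpa3 was higher in fetal cells after Benjamini-Hochberg adjustment but passed the low-signal filter through its fetal mean alone. Of 7 fibroblast genes Dcn fell by 3.78 (Holm-adjusted p = 0.0023 by limma) and had the brightest probe, and the sums were 15635 to 26016 in adult and 5444 to 7056 in fetal cells. Of 6 leukocyte genes on the array Lyz2 and Tyrobp were lower in fetal cells after Benjamini-Hochberg adjustment, the Itgam probe was the brightest, and the sums were 15930 to 23600 and 17056 to 23510.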

How the data were processed

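The 6 one-colour arrays held RNA of 3 fetal and 3 adult basal samples, and groups and replicate numbers were taken from the sample labels. For labelling, the methods name the Low Input Quick Amp WT kit for exon analysis, whereas the labels name the Low Input Quick Amp kit. The authors deposited the spot intensity of each array, from which Feature Extraction 11.0.1.1 had subtracted background, and a table of log2 values that they had quantile normalized. Here the processed intensity was taken to log2, control spots and outlier spots (104 to 326 on an array) were left out, spots of 1 probe were averaged, and quantile normalization was run over the 6 arrays. The files held no gene names, so probes were matched by unversioned transcript accession to genes of RefSeq (GRCm38.p6). That assembly is not the one the array design names, and its gene coordinates are used for gene order and the promoter windows only. Cross-hybridization between related genes was not tested.

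Probes in the lowest of 3 k-means clusters of the group means (boundary 5.95 on the log2 scale) in both groups were removed. The methods describe such a filter, but here it was run with 1 clustering over the means of both groups and on gene-matched probes only, so that the probes kept are not those of the study. Then limma 3.58.1 (lmFit, then eBayes; R 4.3.3) was run on all 20448 that remained, with Holm adjustment. The fit was tested on simulated data. Tables and plots were made with Python 3.11.15, pandas 2.3.3 and matplotlib 3.10.9. For a group with no array well above background a bound was computed, and no fold is given where it is under 1.

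The members, the gene lists and the tests were chosen with earlier results of these data known. By rule the genes named are all members with each probe, the list genes called after Holm's adjustment or else the brightest of the list, the defining markers and the 3 nearest genes of each member. Genes named outside this rule, such as those past Benjamini-Hochberg adjustment only, were chosen after their values were seen. The list of mast cell genes was written after 2 of them had been seen. A gene with several probes is given by its brightest. The arrays lay on 2 slides, with adult arrays 1 and 3 and fetal array 1 on slide 1. Alternatives changed the scaling (75th percentile, or the deposited log2 values), the background (normexp with offset 50 on median signals, or 16 added before log2), the probe filter (none, or well above background), the probes (unmatched ones included, or a mean per gene), the statistics (Benjamini-Hochberg adjustment, trend and robust eBayes, a block for replicate number or slide) and the arrays (each left out).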

Additional observations from a re-analysis of the deposited data

How the results depend on the processing

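No result changed direction in any alternative that tested it. Of the values recomputed, 120 kept their side of the threshold or their size, 11 lost a call, 4 gained one and 21 counts moved by more than 1.5 times. The Krt10 difference lost its call with no low-signal filter (1.47), all probes (1.47), the replicate block (1.47), the slide block (1.50), the mean of its probes (1.23) and each array left out (1.41 to 1.50). With Benjamini-Hochberg adjustment Krt1 (1.95), Sbsn (-1.51) and Krtdap (4.11) gained calls, and Sbsn also did with a variance trend and robust estimation (-1.51). The member probes called, 1 in the fit reported, numbered 4 with Benjamini-Hochberg adjustment, 2 with the variance trend and robust estimation, and 0 with all probes, with the replicate block, with the slide block and with each array left out (0 to 0). Over all tested probes the 2270 calls became 6133 with Benjamini-Hochberg adjustment, 1182 with no low-signal filter, 1302 with the replicate block and 945 to 1981 with 1 array left out, the lowest without fetal replicate 1. The 15 companion epidermal genes called became 35 with Benjamini-Hochberg adjustment and 8 to 16 with 1 array left out. The replicate block also ended the calls of Dsg3, Krt13, Rbpj and Elf3, and dropping the low-signal filter those of Evpl, Dsg3, Krt13 and Rbpj. Same-numbered arrays correlated at -0.03, 0.09 and 0.05 in their deviations from the group means, and not every array correlated best with its own number. No pairing by replicate number was seen in these values, but they cannot show whether same-numbered samples were handled together. For dim members (Ivl, Dsg1a and Krtdap in adult cells) the signal over background limits what can be measured, and adult array 3 or 2 decides the size of the Krtdap difference (3.17 without array 3 and 4.90 without array 2). Krt1, Krt77 and Krtdap were not tested after normexp correction, nor Krt77 without fetal replicate 3.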
